A study of Mus musculus with 11 samples.

Results

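The genes described here encode proteins of the red cell membrane and of the skeleton that lies beneath it. They are Slc4a1, Ank1, Epb42, Rhag, Kel and Ermap. Every probe set of the array that is annotated to only 1 of these genes was taken, whatever its signal. A probe set is a group of short oligonucleotides that together report 1 transcript. The choice gave 11 probe sets for the 6 genes, among 22626 probe sets without controls, of which those with 1 gene cover 12393 genes. Slc4a1 and Ank1 have 3 probe sets each, Epb42 has 2, and Rhag, Kel and Ermap have 1 each. All 11 probe sets were among the 13576 brighter ones that were tested.

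The study profiled lymphomas of mice that carry an E-mu-BRD2 transgene on the FVB background, in which the immunoglobulin heavy chain enhancer E-mu drives the BET protein BRD2 in the B cell lineage. The values are MAS5 signals, the intensity summary of the array maker's software, from 11 arrays of 1 tumour each. There are 6 lymphomas of the class called marginal and 5 of the class called transitional, and all have oligoclonal immunoglobulin. The design also names another lymphoma class, and resting and mitogen-activated B cells, which were not analysed here, so the comparisons are among tumours. The labels grade the enlargement of each spleen. In the marginal class, sample 1 has a spleen graded marginal, samples 2, 3 and 4 are graded mild, and samples 5 and 6 moderate. In the transitional class, sample 3 is graded mild, samples 4 and 5 moderately severe, and samples 1 and 2 severe. All 5 transitional animals and marginal animals 2 and 3 had stopped nesting. The other marginal animals had a tumour of the neck (sample 1), leg (sample 4) or haunch (sample 5), or paralysis (sample 6). The labels name no tissue from which the RNA was taken. Below, mild, moderately severe or severe spleens stand for the arrays of animals with that grade, whatever tissue gave the RNA.

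The red cell membrane is held in shape by a lattice of spectrin that lies under the lipid bilayer. Ankyrin 1, encoded by Ank1, ties the lattice to band 3, the anion exchanger encoded by Slc4a1, and protein 4.2, encoded by Epb42, strengthens that link. Rhag, Kel and Ermap encode surface proteins of the same membrane, and red cell precursors make all of these proteins as they mature. In adult mice the spleen is a site of red cell formation beside the bone marrow, above all under anaemia.

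Depth on an array cannot be counted in reads, and the number of arrays limits the precision. The array medians lay between 99.7 and 151.9 signal units, lowest on transitional 5 and 4. The ratio of the Gapdh probe sets at the transcript's 3' and 5' ends, a measure of RNA integrity, lay between 0.635 and 0.839. The same ratio for actin was lowest on transitional 4 (1.11) and highest on transitional 3 (1.44). Transitional 4 and 5, the arrays of the moderately severe grade, stood apart from the other 9 in their cell type markers. The summed signal of 7 B cell markers, among them Cd79a and Ms4a1, was 9576 and 6175 there and between 21964 and 78535 on the other arrays. There Cd79a read 2005 and 910.0 and Ms4a1 3313 and 2812 signal units, while Pax5 read 4.2 and 12.2, near the bottom of the scale. The replicates are single tumours with no repeat, so p-values measure the spread between these tumours, and in RNA from whole tissue fewer cells of a type and less RNA per cell cannot be told apart.

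Slc4a1 encodes band 3, which exchanges chloride for bicarbonate and is the main anchor of the skeleton. With its brightest probe set, 1416464_at, the marginal arrays ran from 5221 to 15015 signal units with a median of 8035. The transitional arrays read 411, 1772, 1367, 20855 and 15220 in sample order 1 to 5. The transitional class held both extremes of the series. Samples 1, 2 and 3 lay under every marginal array and samples 4 and 5 lay above every marginal array. The probe set 1434502_x_at, whose suffix marks probes that can match related transcripts, gave 455, 2167, 1466, 14927 and 12497 on the transitional arrays against 6201 to 12891 (median 9676) on the marginal arrays. Here transitional 5 fell within the marginal range, and only transitional 4 lay above it. The probe set 1431743_a_at read 30.1, 166, 24.9, 3906 and 2926 on the transitional arrays against 110.3 to 1315 (median 406) on the marginal arrays. Its transitional 2 value overlapped the marginal range.

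Rhag encodes the Rh-associated glycoprotein, which carries the Rh proteins to the surface as a complex with ammonia transport activity. The transitional arrays read 116, 583, 327, 7895 and 6611 signal units, and the marginal arrays 919 to 4371 with a median of 1958. The transitional arrays had the order of band 3, with samples 1, 2 and 3 under the whole marginal class and samples 4 and 5 over it.

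Ank1 showed the same order of arrays except near the bottom. Its brightest probe set, 1419421_at, read 134, 237, 155, 2664 and 2382 signal units on the transitional arrays and 213 to 1720 (median 838) on the marginal arrays. Transitional 2 lay just over marginal 6, the lowest marginal array. The probe set 1425677_a_at read 47.8, 86.7, 12.3, 1747 and 919.5 against 151 to 855, with no array of transitional 1, 2 or 3 in the marginal range. The dimmest probe set, 1452512_a_at, read 6.3, 45.5, 7.1, 315 and 260.5 against 17.4 to 209, and its low values are close to the bottom of the scale.

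Epb42 encodes protein 4.2, a relative of the transglutaminases that has no enzyme activity and binds band 3 and ankyrin. Its probe set 1417337_at read 27.0, 75.5, 145, 3739 and 3290.4 signal units on the transitional arrays and 297 to 2000.4 (median 908.5) on the marginal arrays. Its probe set 1417338_at read 62.3, 40.4, 13.1, 3175 and 1741 against 119 to 1036 (median 429.8). With both probe sets the marginal class filled the gap between the low and the high transitional arrays, with no overlap on either side.

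Kel encodes the Kell glycoprotein, a zinc endopeptidase and blood group antigen. It read 76.1, 206, 231, 5175 and 4944 signal units on the transitional arrays and 448 to 2609 (median 1254) on the marginal arrays. Ermap, the erythroblast membrane-associated protein that carries the Scianna blood group, read 88.9, 371, 320.1, 9655 and 6410.2 against 709 to 5748 (median 2689). Both genes split the transitional class around the marginal class as Rhag did.

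**Figure D1:**
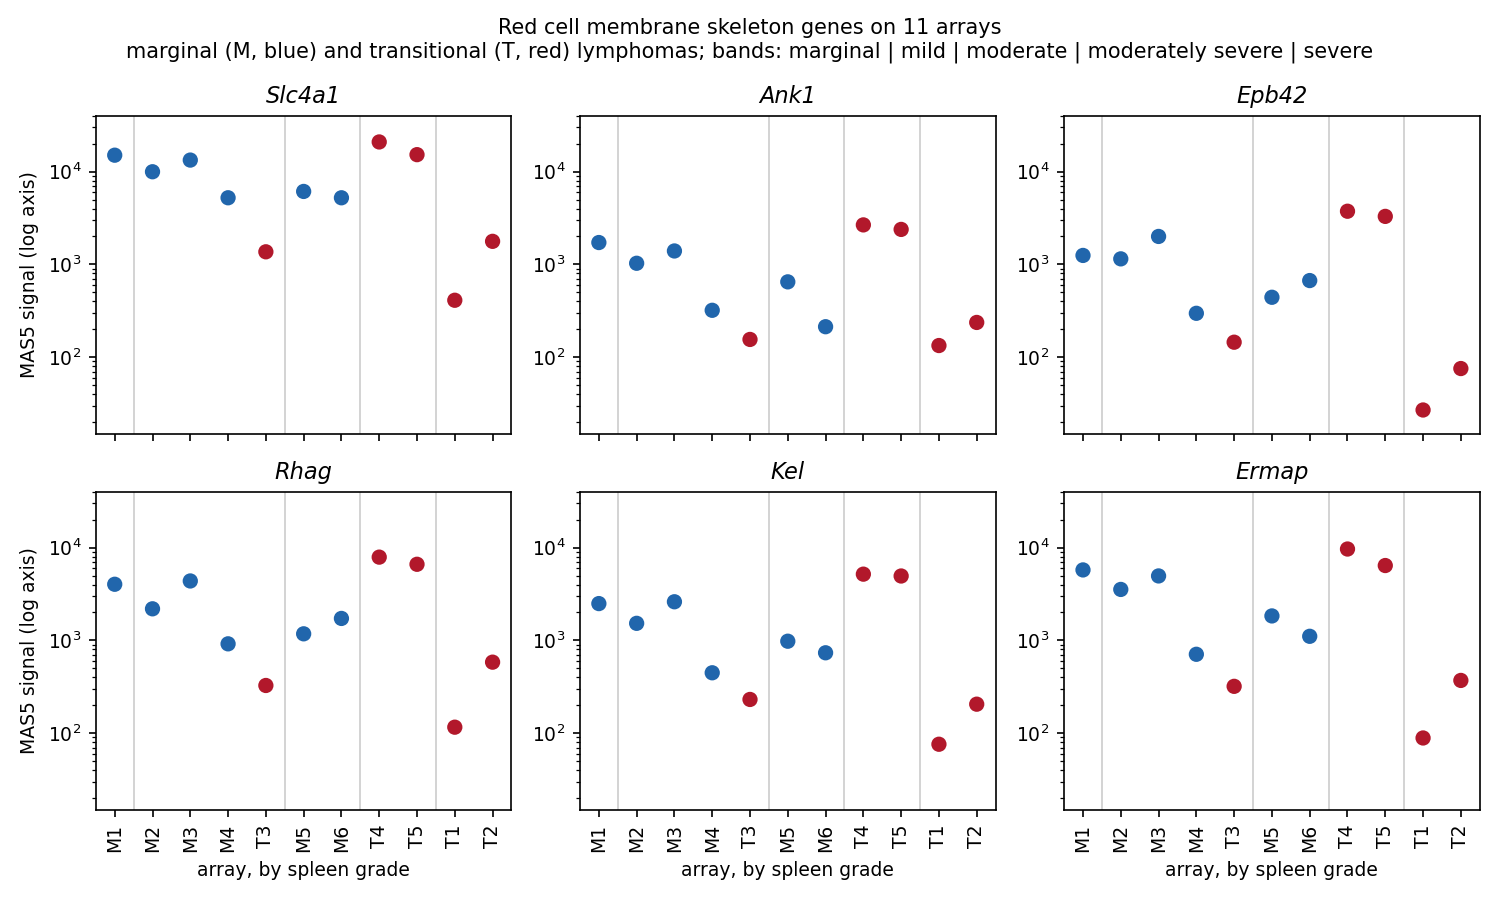
MAS5 signal (log axis) of the brightest probe set of each of the 6 genes on the 11 arrays, ordered by spleen grade; blue points are marginal and red points transitional lymphomas. The 2 moderately severe arrays are the highest in every panel, and transitional 1, 2 and 3 are among the lowest.

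The arrays kept nearly the same order across the members. Transitional 4 was the highest array for 11 of 11 probe sets, and transitional 5 was among the top 2 for 10 of 11. Both lay above every other array for 10 of 11, an order that 12.7% of all tested probe sets showed. Marginal 1 and 3 were among the top 5 for 11 of 11. They lay above the other marginal arrays for 11 of 11, as in 11.4% of all tested probe sets. Transitional 1 was the lowest array for 8 probe sets and transitional 3 for the other 3. Averaged over the 6 genes, the log2 deviation from each gene's own mean over the 11 arrays was 2.37 on transitional 4 and 2.09 on transitional 5. It was 1.50 on marginal 3, 1.47 on marginal 1, 0.85 on marginal 2, -0.01 on marginal 5, -0.30 on marginal 6 and -0.77 on marginal 4. It was -1.83 on transitional 2, -1.99 on transitional 3 and -3.37 on transitional 1. The single genes ran from 1.14 to 1.89 on marginal 1 and from 1.18 to 1.81 on marginal 3. With 1 array a tumour, neighbours in this order cannot be tested.

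The members spanned a wide range. On the log2(signal + 16) scale, where 16 is an offset that damps noise at low signal, the range of the 11 member probe sets ran from 3.89 to 6.78 with a median of 5.90. The median over all tested probe sets was 1.58, and 6.92% of them had a range at least as wide as the narrowest member. Within the transitional class the log2 SD of the brightest probe sets lay between 2.08 (Ank1) and 3.01 (Epb42), and within the marginal class between 0.68 (Slc4a1) and 1.21 (Ermap). The medians over all tested probe sets were 0.50 and 0.43.

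Across the 11 arrays, which share their scaling and their tumours, Pearson's r between pairs of the 6 genes lay between 0.904 (Slc4a1 with Ank1) and 0.991 (Kel with Ermap). Over the 9 arrays without transitional 4 and 5 it lay between 0.851 (Epb42 with Ank1) and 0.996 (Kel with Ermap). These are descriptions of 1 set of arrays, and the 5 pairs with Ank1 had the 5 lowest r over 11 arrays. Among 7752 other genes, those whose pattern came nearest to the mean of the members were Rhd (r = 0.995 over 11 arrays), 1300017J02Rik (0.994), Klf1 (0.992), Tal1 (0.991), Icam4, Pigq and Cldn13 (0.990 each) and Dmtn (0.989). All 8 were highest on transitional 4 and lowest on transitional 1. Rhd ran from 99.6 to 11748 signal units and Klf1 from 123 to 13401. Rhd encodes the Rh protein partnered by Rhag, Klf1 and Tal1 encode transcription factors of red cell precursors, Icam4 a red cell adhesion molecule and Dmtn the actin-bundling skeleton protein dematin.

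Because the members kept nearly the same order of arrays, the stretches before their transcription starts are shown for the 4 members with an entry in the RefSeq promoter table (GRCm38.p6): Epb42, Ermap, Kel and Rhag. Each stretch holds the 250 bases before the start that the table gives, printed 5' to 3' along the gene's own strand. Epb42 is at chr2:121036878-121037127 on the minus strand, Ermap at chr4:119189996-119190245 on the minus strand, Kel at chr6:41704326-41704575 on the minus strand and Rhag at chr17:40810899-40811148 on the plus strand. Capitals mark AGATAA or TGATAA, forms of the motif bound by GATA factors that share GATAA and cannot match at the same place, or their reverse complements TTATCT and TTATCA.
Epb42: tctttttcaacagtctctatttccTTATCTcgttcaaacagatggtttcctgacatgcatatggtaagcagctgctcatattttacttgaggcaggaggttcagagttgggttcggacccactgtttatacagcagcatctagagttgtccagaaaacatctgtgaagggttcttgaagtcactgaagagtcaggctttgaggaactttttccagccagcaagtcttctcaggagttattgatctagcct
Ermap: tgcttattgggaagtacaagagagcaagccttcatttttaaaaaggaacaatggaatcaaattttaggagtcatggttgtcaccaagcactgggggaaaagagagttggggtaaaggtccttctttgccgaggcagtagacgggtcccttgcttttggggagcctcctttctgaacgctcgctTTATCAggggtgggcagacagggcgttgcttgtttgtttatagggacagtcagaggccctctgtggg
Kel: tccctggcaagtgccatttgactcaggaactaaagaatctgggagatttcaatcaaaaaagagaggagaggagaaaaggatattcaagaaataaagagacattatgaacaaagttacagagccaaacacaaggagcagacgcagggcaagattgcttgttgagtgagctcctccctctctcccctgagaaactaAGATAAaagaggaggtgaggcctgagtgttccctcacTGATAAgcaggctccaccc
Rhag: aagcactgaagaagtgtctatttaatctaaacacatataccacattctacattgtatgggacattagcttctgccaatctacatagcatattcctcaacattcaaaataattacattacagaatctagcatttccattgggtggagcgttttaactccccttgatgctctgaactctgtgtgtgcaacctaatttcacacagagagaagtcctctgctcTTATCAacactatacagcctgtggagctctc

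AGATAA or TGATAA stood on either strand in 4 of these 4 windows and in 16.6% of the 32851 windows of the table. Kel has both forms on its own strand, AGATAA at 56 to 51 and TGATAA at 19 to 14 bases before the start. Rhag has TGATAA at 31 to 26 bases before the start and Ermap at 67 to 62, both on the opposite strand. The RefSeq gene annotation places the Rhag start earlier, at 40811099, and by that start the Rhag match lies inside the gene. It also places the starts of Ermap (119190013) and Kel (41704334) inside their windows, with their matches still before those starts. Epb42 has AGATAA on the opposite strand, farther away, at 226 to 221 bases. CCNCNCCC, a short form of the motif bound by KLF1 that can overlap neither GATA form, was in 0 of 4 windows and in 45.9% of all windows. Such matches describe letters in these windows and nothing about binding.

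The first comparison asks whether the members differ between the severity classes. No member passed the test, and none had classes without overlap, a pattern found in 0.243% of all tested probe sets. The brightest Slc4a1 probe set averaged 7925 ± 9457 signal units (SD, n = 5) in transitional and 9138 ± 4299 (SD, n = 6) in marginal tumours. The difference, transitional minus marginal, was -1.38 on the log2 scale (SE 0.88, 95% interval -3.30 to 0.54, limma adjusted p = 0.999). It was -1.26 (SE 1.11) for Ermap, -1.10 (SE 1.12) for Epb42, -0.94 (SE 0.99) for Rhag, -0.89 (SE 1.03) for Kel and -0.43 (SE 0.86) for Ank1, with the same adjusted p. With 1 array left out these values ranged from -2.06 to -0.65 for Slc4a1, -2.09 to -0.46 for Ermap, -1.93 to -0.32 for Epb42, -1.66 to -0.18 for Rhag, -1.63 to -0.18 for Kel and -1.01 to 0.03 for Ank1. The lowest came without transitional 4 and the highest without transitional 1. With array weights they lay between -1.63 (Ank1) and -2.82 (Ermap), with a limma adjusted p of 0.721 to 0.762. The test called 0 of 11 members and 0 of 13576 probe sets (0%). At an unadjusted p under 0.05 there were 446 probe sets and 0 members.

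The sign of the class difference depended on the scale, because the transitional class held the highest and the lowest arrays. The linear mean was higher in the transitional class for 5 of the 6 genes, all but Slc4a1. Rhag, for example, averaged 3107 ± 3816 (SD, n = 5) against 2402 ± 1464 (SD, n = 6), although its log2 difference was negative. Over all 11 probe sets 10 log2 differences were negative, with a median of -0.93 against -0.05 over all tested probe sets. Leaving out the moderately severe arrays, transitional 4 and 5, took the difference to -3.03 for Slc4a1, -3.28 for Ermap, -3.25 for Epb42, -2.85 for Kel, -2.78 for Rhag and -1.93 for Ank1. The adjusted p in limma was then between 0.119 and 0.327, so no member passed there either. Transitional 1, 2 and 3 all lay below every marginal array for 8 of 11 probe sets, a pattern that 2.84% of all tested probe sets showed. The exceptions were 1419421_at and 1452512_a_at of Ank1 and 1431743_a_at of Slc4a1, in each of which transitional 2 reached the marginal range.

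The second comparison asks whether the members follow spleen grade, taken as ranks 1 to 5 from marginal to severe. No steady change was called. The limma fit called 0 of 11 members and 0% of all tested probe sets, with 295 probe sets and 0 members at an unadjusted p under 0.05. The slopes of the brightest probe sets ran from -0.27 (Ank1, SE 0.33) to -0.58 (Ermap, SE 0.42) log2 units per grade. With class as a further term they ran from -0.29 (Rhag, SE 0.57) to -0.50 (Epb42, SE 0.64), and again 0 members and 0% of probe sets were called, with 288 probe sets and 0 members at an unadjusted p under 0.05. Without transitional 3, the limma fit with class called 1 member, the Ank1 probe set 1425677_a_at, among 1188 of 13576 probe sets called, so nothing is read from that call. The levels had no single direction along the grades. Slc4a1 read 15015 on the marginal grade array, 7463 ± 5244 (SD, n = 4) in mild, 5666 ± 628 (SD, n = 2) in moderate, 18038 ± 3985 (SD, n = 2) in moderately severe and 1091 ± 962 (SD, n = 2) in severe spleens. Within the marginal class, the moderate spleens of samples 5 and 6 lay below sample 1 for 11 of 11 members, as for 36.0% of all tested probe sets.

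The grades were therefore also compared as unordered groups that share 1 estimate of the spread, which the groups of 2 arrays rest on. Between the moderately severe and the severe spleens, all of the transitional class, every member with a probe set differed. Epb42 (1417337_at) averaged 3515 ± 317 signal units (SD, n = 2) in moderately severe and 51.3 ± 34.3 (SD, n = 2) in severe spleens. Its log2 difference was 5.81 (SE 0.97, limma adjusted p = 0.00512), or 56.2-fold on the offset scale. Ermap rose by 5.29 (SE 1.12, adjusted p = 0.0102), Kel by 5.15 (SE 0.92, adjusted p = 0.0059) and Rhag by 4.69 (SE 1.01, adjusted p = 0.011). Slc4a1 rose by 4.35 (SE 0.93, adjusted p = 0.0106) and Ank1 by 3.70 (SE 0.88, adjusted p = 0.0154), the smallest difference among the brightest probe sets. The second Epb42 probe set gave 5.16 and the other probe sets of Slc4a1 3.75 and 5.21, so probe sets of 1 gene gave the same direction.

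In that comparison limma called 11 of 11 member probe sets higher, against 9.47% of all tested probe sets called higher and 24.2% called in either direction. Their median difference was 4.69, against -0.23 over all tested probe sets. The moderately severe arrays lay above both severe arrays for 11 of 11 members, as they did for 26.5% of all probe sets, and a log2 difference over 3 was found for 11 of 11 members and 1.87% of all. The smallest member difference was 3.03 (1452512_a_at of Ank1), just over that cutoff, so the 11 of 11 depends on where the cutoff was placed. Within each grade nearly all members shared 1 order, with transitional 4 above 5 for 11 of 11 members (54.2% of all probe sets) and transitional 1 below 2 for 10 of 11 (49.9% of all). Each order compares a single pair of tumours, and members that vary together do not repeat it. The count of members called rests on the 2 arrays of each grade. Without transitional 1, 4 or 5 it was 2 (Epb42 1417337_at and Kel), and without transitional 2 it was 9, while the differences of the brightest probe sets stayed between 3.32 and 6.36.

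Against the 4 mild spleens, 3 marginal tumours and 1 transitional tumour, the moderately severe spleens were higher for every member, but few passed the test. Kel averaged 5060 ± 163 signal units (SD, n = 2) against 1204 ± 1095 (SD, n = 4), a log2 difference of 2.62 (SE 0.80, limma adjusted p = 0.0409). Also called were 1431743_a_at of Slc4a1 (3.74, SE 1.13, adjusted p = 0.0398) and 1452512_a_at of Ank1 (2.61, SE 0.70, adjusted p = 0.0266). The brightness filter used the mean over all arrays, down to 72.9. The Ank1 probe set 1452512_a_at averaged 46.0 in mild and 25.9 in severe spleens. Its place among the tested probe sets therefore leaned on its brighter arrays, chiefly transitional 4 and 5 (315.4 and 260.5). With no filter it was still called, against mild and against severe spleens. With an offset of 1 it was called against severe but not against mild spleens. The other 8 probe sets had differences between 1.17 and 3.26 and limma adjusted p between 0.0516 and 0.315. Among them Epb42 had 2.59 (adjusted p = 0.0516), Rhag 2.45 (adjusted p = 0.0699), Ermap 2.45 (adjusted p = 0.0937), Ank1 with 1419421_at 2.23 (adjusted p = 0.0603) and Slc4a1 with 1416464_at 1.68 (adjusted p = 0.155).

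These 3 of 11 members called higher compare with 7.48% of all tested probe sets called higher and 21.7% called in either direction. The moderately severe arrays lay above all 4 mild arrays for 10 of 11 members and for 19.9% of all probe sets. The exception was 1434502_x_at of Slc4a1. The log2 difference was over 1 for 11 of 11 members and 9.93% of all, and over 2 for 9 of 11 and 2.17% of all. The mild group was uneven: transitional 3 lay under the 3 mild marginal arrays for 11 of 11 members, an order that 27.9% of all tested probe sets showed. The number of members called was 0 without marginal 4, transitional 4 or transitional 5 and 9 without marginal 3.

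**Figure D2:**
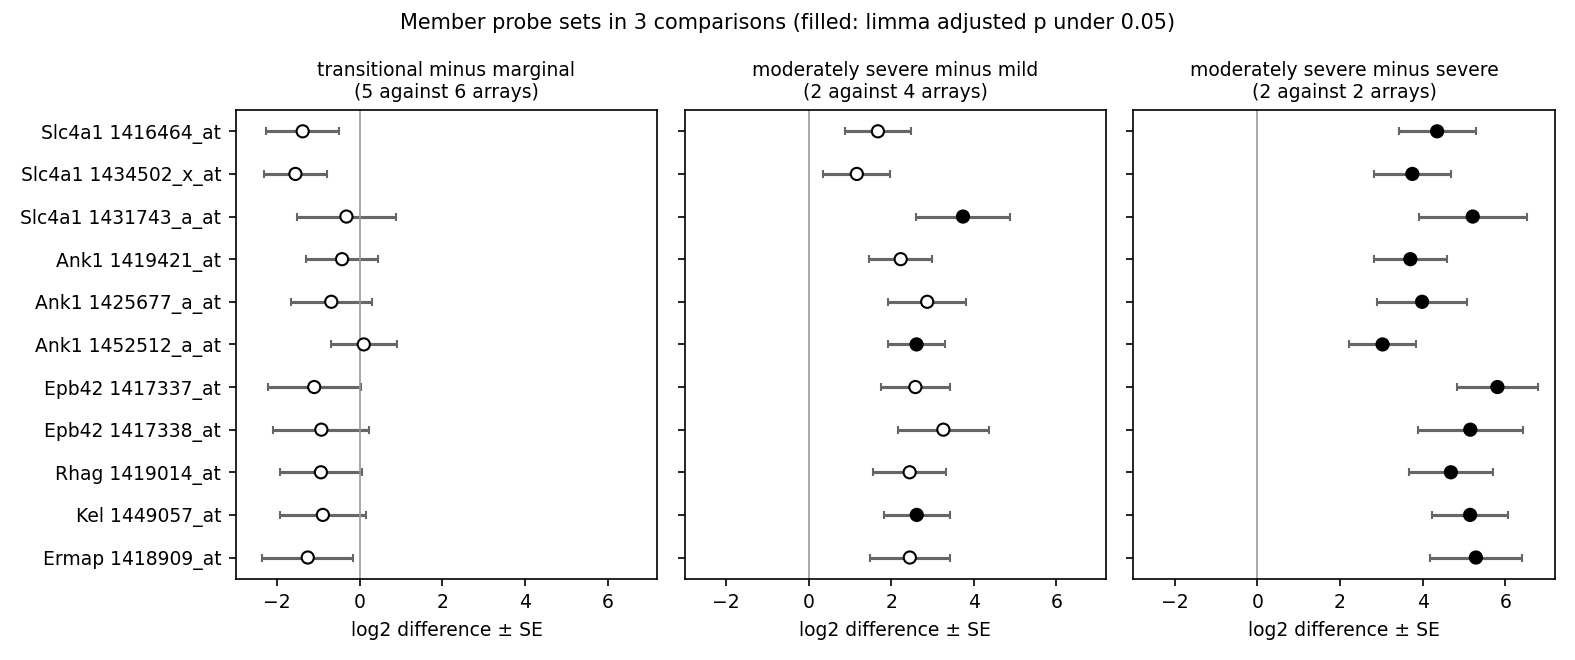
Log2 difference (points) with its standard error (bars) for the 11 member probe sets in 3 comparisons; filled points have a limma adjusted p under 0.05. All 11 points are filled for moderately severe minus severe, 3 for moderately severe minus mild and 0 for transitional minus marginal.

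Most other genes of the red cell membrane and skeleton were also higher in moderately severe than in severe spleens. The list holds 30 genes, of which 27 have a probe set and 25 were tested, each by its brightest probe set. Of the 25, 22 were higher in moderately severe than in severe spleens and 3 lower, with a median difference of 3.17. The fit called 1 lower, against 14.8% of all tested probe sets, and 18 higher, against 9.47% of all. Skeleton genes among them were Dmtn (5.09, SE 0.94, limma adjusted p = 0.00667), the beta adducin gene Add2 (4.44, SE 0.78, adjusted p = 0.00573), the beta spectrin gene Sptb (3.86, SE 0.68, adjusted p = 0.00573) and Tmod1, which caps the short actin filaments of the lattice (3.54, SE 0.70, adjusted p = 0.00807). Sptb read 81.6, 198, 184, 2443 and 1772 signal units on the transitional arrays and 317 to 1698 on the marginal arrays.

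The surface genes of the list that rose included Icam4 (5.61, SE 0.89, limma adjusted p = 0.00429), Rhd (5.49, SE 1.06, adjusted p = 0.00755) and the water channel gene Aqp1 (5.34, SE 0.97, adjusted p = 0.00617). The gene called lower was Slc2a1, the glucose transporter GLUT1 (-1.41, limma adjusted p = 0.0422). It did not pass after quantile normalization (-1.33, adjusted p = 0.0606) or scaling to a common median (-0.99, adjusted p = 0.152). Of the 6 not called, Xk had 2.28, Slc16a1 2.22, Cd59a 2.10, Add1 1.04, Tpm3 -0.62 and Cd55 -0.68. Fewer were called higher without transitional 5, which leaves a single moderately severe array.

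Against mild spleens 22 of the 25 were higher and 3 lower, with a median of 2.08. Called higher were 14, against 7.48% of all tested probe sets, and called lower 2, against 14.2% of all. The 2 called lower were Slc2a1 (-1.31, limma adjusted p = 0.0357) and Cd55, a complement regulator (-1.89, adjusted p = 0.0113). Slc2a1 again did not pass after either scaling. The number called higher was 5 without marginal 4 and 9 without transitional 3. Fewer still were called higher without transitional 4 or transitional 5, each of which leaves a single moderately severe array. Between classes none of the 25 was called, and their median was -0.18.

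Relatives of the members and of spectrin that serve other tissues were mostly dim. Of 17 such genes 14 have a probe set and 6 were tested. The untested ones stayed low on every array: the highest signal was 18.3 for Rhbg and 25.5 for Rhcg, relatives of Rhag, 43.1 for Slc4a3 and 64.2 for Slc4a4, relatives of band 3, 90.1 for Ank3, 37.2 for Mme, 66.3 for Btn1a1 and 124 for Tgm3. Among the 6 tested, all were lower in moderately severe than in severe spleens. The fit called 1 lower, Sptan1, a spectrin gene of cells other than red cells, as it did 14.8% of all tested probe sets. Sptan1 fell by 1.63 (SE 0.29, limma adjusted p = 0.00583) against severe and by 1.76 (SE 0.25, adjusted p = 0.00335) against mild spleens, and passed under both other scalings. The largest other differences from severe spleens were -1.80 for Tgm1 (adjusted p = 0.158) and -1.66 for Ece1 (adjusted p = 0.059). Against mild spleens the differences of Tgm1 (-0.03) and Tgm2 (-0.04) turned positive under both other scalings.

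**Figure D3:**
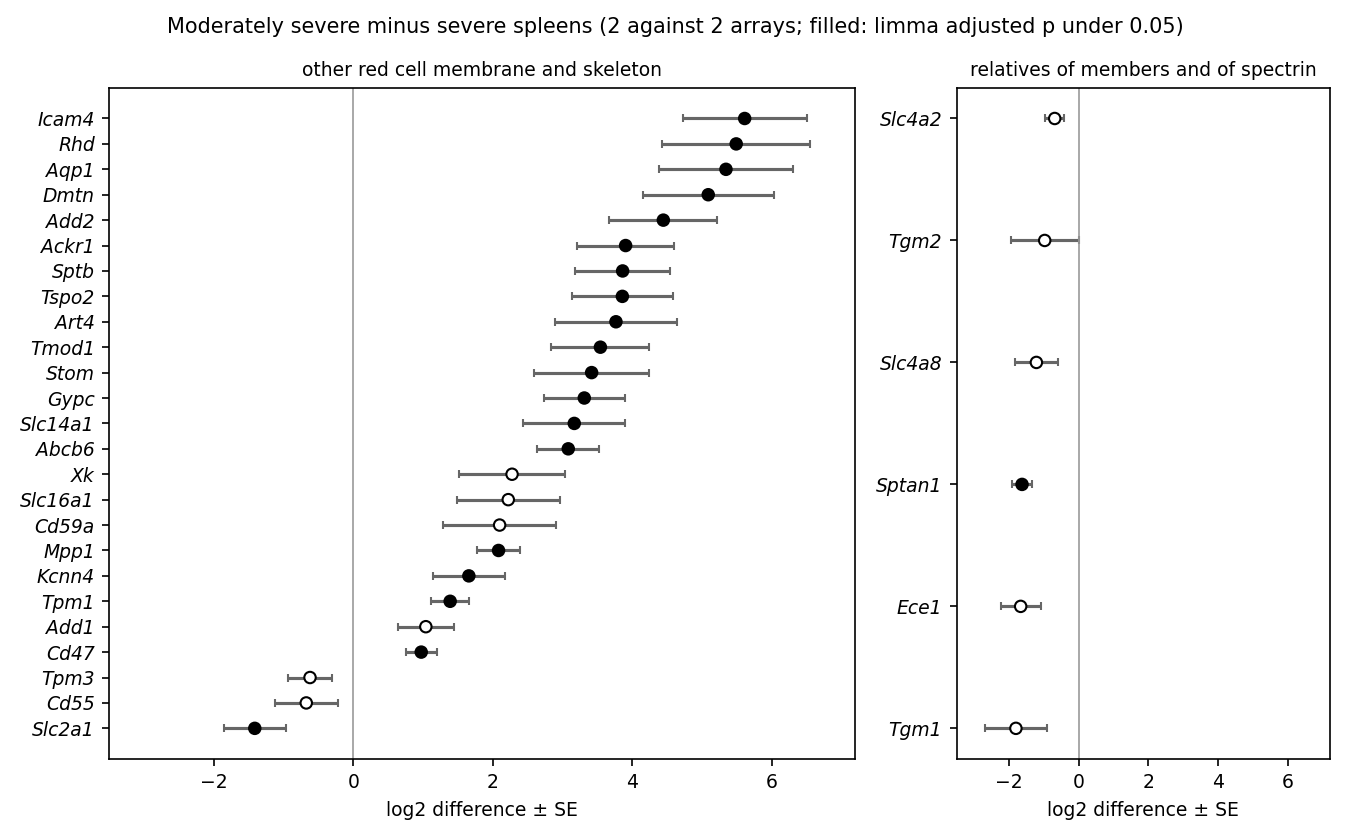
Log2 difference, moderately severe minus severe (2 arrays each), with its standard error for other red cell membrane and skeleton genes (left) and for relatives of the members and of spectrin (right); filled points have a limma adjusted p under 0.05. On the left 18 genes are called higher and 1 lower, and on the right 1 gene, Sptan1, is called lower.

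Markers of several cell types moved with the members. Red cell precursor markers, 13 of 15 genes with a probe set, summed to 149708 and 122251 signal units on transitional 4 and 5, to 36783 to 104255 on the marginal arrays, and to 4377, 13788 and 14055 on transitional 1, 2 and 3. Of the 12 tested, 12 were called higher in moderately severe than in severe spleens (median 4.31), against 9.47% of all tested probe sets. Among them were Klf1 (5.69, limma adjusted p = 0.00796), the haem synthesis gene Alas2 (4.53, adjusted p = 0.0174) and Gata1 (4.38, adjusted p = 0.00429). Against mild spleens 4 of the 12 were called higher, against 7.48% of all. The single-gene Hba-a1 probe set stayed between 4.6 and 83.4 and was not tested.

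Granulocyte precursor markers, 8 of 8 genes with a probe set, were also high on transitional 4 and 5 (107953 and 53043), but their highest array was marginal 1 (159831), and they ran down to 2364 on marginal 6. All 8 tested were higher in moderately severe than in severe and in mild spleens. Called higher were 5 against severe (9.47% of all tested probe sets) and 2 against mild spleens (7.48% of all). All 7 tested B cell markers were lower than in mild (median -2.62) and in severe spleens. Called lower were 7 of 7 against mild (14.2% of all tested probe sets) and 6 of 7 against severe spleens (14.8% of all). T cell markers, 5 of 6 genes with a probe set, summed to 1242 and 106 on transitional 4 and 5, to 1911 to 6908 on the marginal arrays and to 9306 to 17878 on transitional 1, 2 and 3. The part of these markers in the results for the members was not tested.

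Some members are also made outside red cells, Slc4a1 in acid-secreting cells of the kidney and Ank1 in nerve and muscle. The 3 kidney markers (Atp6v1b1, Atp6v0a4 and Foxi1) together stayed between 8.0 and 88.4 signal units on every array, and none reached the brightness needed for testing. The 5 nerve and muscle markers together stayed between 37.6 and 411. Ttn alone was bright enough for testing and made up 363 of that highest sum, on transitional 2. The part of such cells in the signals of the members was not tested.

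**Figure D4:**
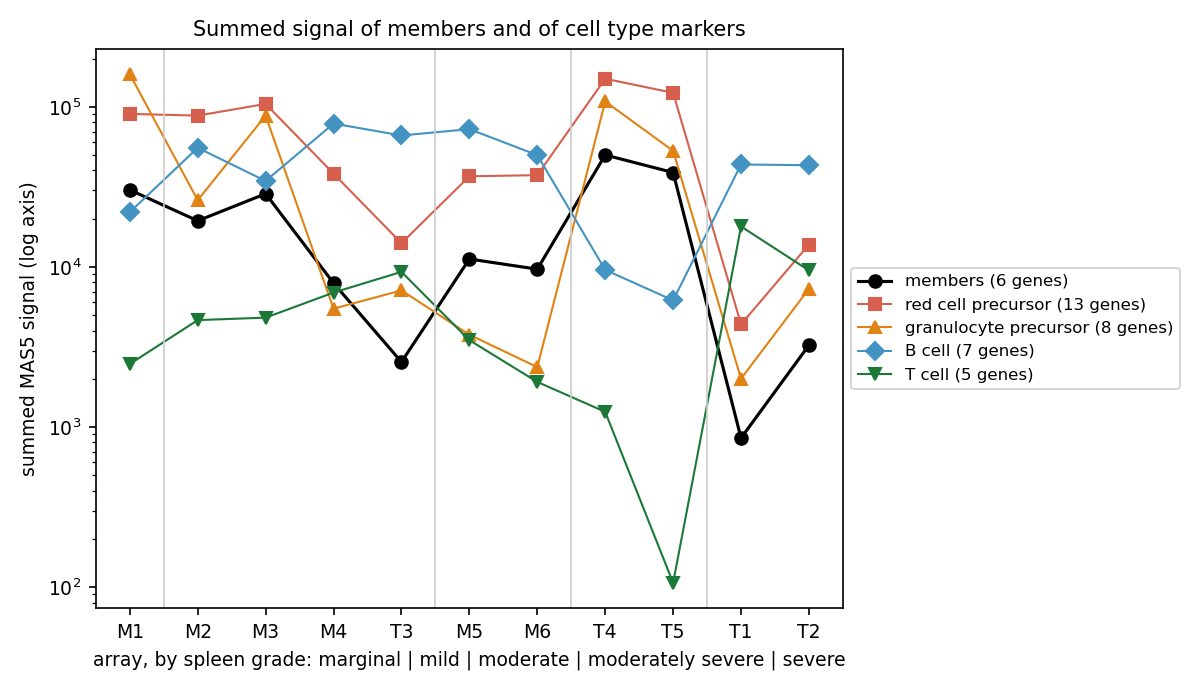
Summed MAS5 signal (log axis) of the brightest probe set of each of the 6 member genes and of the marker genes of 4 cell types on each array, ordered by spleen grade; vertical lines separate the grades. The members and the red cell precursor markers peak together on transitional 4 and 5, where the B cell and T cell sums are lowest.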

How the data were processed

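Total RNA was labelled through a poly-dT primer and hybridised to 11 arrays. The deposited values are MAS5 signals, an intensity on a linear scale, per the submitters' processing notes. For the release of MAS5, not given in the sources used here, no number is printed. After trimming 2% of values, each array had a mean of 500.2, so the values were taken as already scaled. All 11 columns matched a sample. Of 22690 probe sets, 64 controls were left out; 20380 carry 1 gene, 691 several and 1555 none in the platform annotation, and 20351 of the 20380 symbols matched RefSeq.

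Log2(signal + 16) was fitted by lmFit and trended eBayes of limma (version 3.58.1, under R 4.3.3). Tests were two-sided, with Benjamini-Hochberg adjustment over the 13576 probe sets and a threshold of 0.05. Tested probe sets were the upper 60% by mean signal, down to a mean of 72.9. Fits were tested on simulated data. Correlations used Python 3.11.15. Groups came from the labels' class and spleen grade.

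All member probe sets were named; 1 further gene of the set is not reported here. Of the other red cell genes, those past the threshold could be named, and otherwise those with the largest contrast. For the relatives, the highest signals and the largest contrasts were named, and Tgm2 and the 6 uncalled red cell genes were added after their values were seen. Genes of like pattern were the 8 with the highest r. The members and lists were chosen with earlier results of these data known. Same-numbered samples of the classes did not deviate together (correlations -0.449 to -0.0889), and the main fits did not pair them. Such correlations cannot exclude a pairing that left little trace in the signals.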

Additional observations from a re-analysis of the deposited data

How the results depend on the processing

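Offsets of 1 and 64, quantile normalization, median scaling, no filter, the upper 40% of probe sets, eBayes without trend, array weights and leaving out each array were tried. The count of members called stayed at 0 for class and for the grade trend in all of them. For the trend with class it ranged from 0 to 1 when an array was left out, and the 1 came without transitional 3, where 1188 of 13576 probe sets were called. For moderately severe against mild spleens it was 3, and became 1 with an offset of 1, with quantile normalization or with no filter, 6 with an offset of 64, and 8 with median scaling or array weights. It ranged from 0 to 9 with an array left out. Against severe spleens it was 11, between 10 and 11 under the other settings, and ranged from 2 to 11 with an array left out. With an array left out, 4 slopes or differences changed sign, each without transitional 1. The ranges were -1.01 to 0.028 for the class difference of Ank1, -0.58 to 0.037 for the trend of Rhag, and for the trend with class -1.65 to 0.045 for Slc4a1 and -1.74 to 0.16 for Rhag.

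With the sample number as a replicate block, 0 members were called in the class, trend and trend with class fits, and class differences lay between -0.76 (Ank1) and -1.52 (Slc4a1). No block was fitted for the contrasts of 2 grades. Among the animals that had stopped nesting, 0 members were called between classes. Median scaling moved the median of all tested probe sets from -0.16 to 0.16 against mild and from -0.23 to 0.18 against severe spleens. The share of all calls that were higher was 34.5% and 39.0% as deposited, 43.0% and 49.0% after quantile normalization, and 62.9% and 66.7% after median scaling. All calls numbered 2942 against mild (261 to 3564 with an array left out, 4314 with array weights) and 3291 against severe spleens (842 to 3454). Signals near the bottom of the scale, such as those of 1452512_a_at, limit what the low arrays can show.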

Other observations

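Genes of the red cell membrane list did not all follow the array order of the members. Cd59a, a complement inhibitor of the cell surface, was highest on marginal 6 (2345 signal units), above the 1470 and 1238 of transitional 5 and 4. Tspo2, a relative of the translocator protein gene Tspo that red cell precursors use, was highest on transitional 5 (2556) with 639 on transitional 4, whereas every member was highest on transitional 4. Slc16a1, a lactate transporter gene, was also highest on transitional 5 (8072). These 3 genes were chosen after their values were seen.

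Transitional 2, an array of the severe grade and low in the members, had the highest summed signal of 7 macrophage markers (39906, against 1585 to 10749 on the other arrays) and of 5 megakaryocyte markers (5112, against 399.8 to 2681). The summed signal of 4 NK cell markers lay between 487 and 2810 on the marginal arrays and between 681 and 4700.0 on the transitional arrays. Marginal 1 and 3, the marginal arrays highest in the members, were also the marginal arrays highest in granulocyte precursor markers (159831 and 88029), and they had the lowest B cell sums of the marginal class (21964 and 34400).

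The 3 Slc4a1 probe sets gave unlike ratios between the moderately severe arrays and marginal 1, the array of the lowest grade. Transitional 4 over marginal 1 was 1.39 with 1416464_at, 1.16 with 1434502_x_at and 5.55 with 1431743_a_at. For the 2 Epb42 probe sets the ratio was 2.99 and 3.07, and for Ermap it was 1.68. The cause was not tested.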
